A study of Mus musculus with 12 samples.

Results

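The 42 genes described here are genes of B cells, immunoglobulin constant regions and major histocompatibility complex (MHC) class II, measured in RNA from natural killer (NK) cells sorted from mouse lymph nodes. They were taken by name, from a list drawn up with earlier results of these data known, and all 42 were found among the 56748 gene identifiers of the count tables. The list held 5 B lineage transcription factors, 10 genes of the B cell receptor complex and its signalling, 9 B cell surface receptors, 10 genes of immunoglobulin chains and their assembly and 8 genes of MHC class II. It had been drawn up as genes that B cells or lymphoma cells among the sorted cells could bring in, but the source of the RNA was not measured, and the genes are called here by what they encode.

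There were 12 libraries of poly(A) RNA in 3 groups of 4. The tumor-free group came from lymph nodes of C57BL/6J mice without tumor. The lymphatic and hematogenous groups came from tumor-bearing nodes in a mouse model of diffuse large B cell lymphoma, an aggressive B cell cancer, spread through lymphatic vessels or through blood vessels. The labels give no transgene, drug, age or number of mice, do not name the lymphoma cells injected or grown, and do not give the gate used to sort the NK cells. They number the libraries of a group 1 to 4 without saying that each came from its own mouse, so p-values measure the spread between these libraries, which may be technical.

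B cells are made under the control of transcription factors such as Pax5 and Ebf1 and recognise antigen through a receptor, which is a membrane immunoglobulin held in a complex with Cd79a and Cd79b. The antigen-binding end of each chain is encoded by a variable gene segment that is joined to others in the developing B cell, so that all descendants of a B cell carry the same rearranged segments. MHC class II molecules, pairs of an alpha and a beta chain, carry peptides to CD4 T cells. In mice they are found mainly on B cells, dendritic cells and macrophages, and their genes are switched on by the coactivator Ciita through shared promoter boxes named X and Y. NK cells, innate killers of infected and malignant cells, carry no rearranged immunoglobulin receptor.

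The sequences of a pair of variable segments are shown because they had no count in any tumor-free library and were the leading segments of several tumor libraries. The first of these traits was not particular to the pair, as given below. The pair are Igkv3-7 (kappa light chain) and Ighv3-6 (heavy chain) as annotated in GENCODE M21. Igkv3-7 is printed over 299 bases, and for Ighv3-6 the last 300 bases of its transcript are printed. Capitals mark the codon of the conserved cysteine and the bases after it, the segment's own part of the third antigen-binding loop.
Igkv3-7: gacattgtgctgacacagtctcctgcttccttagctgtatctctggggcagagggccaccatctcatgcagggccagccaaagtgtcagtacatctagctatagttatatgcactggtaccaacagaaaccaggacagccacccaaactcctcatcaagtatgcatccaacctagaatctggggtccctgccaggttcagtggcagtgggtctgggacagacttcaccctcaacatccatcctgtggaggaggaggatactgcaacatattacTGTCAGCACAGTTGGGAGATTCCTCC
Ighv3-6: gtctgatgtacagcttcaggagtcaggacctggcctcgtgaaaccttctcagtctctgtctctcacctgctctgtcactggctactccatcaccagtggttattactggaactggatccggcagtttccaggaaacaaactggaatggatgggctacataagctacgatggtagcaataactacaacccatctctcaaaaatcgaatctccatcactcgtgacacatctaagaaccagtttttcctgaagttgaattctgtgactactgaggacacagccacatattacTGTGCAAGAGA

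Promoter stretches of 4 class II genes are shown because these genes are read together below and share the X and Y boxes. In the RefSeq promoter windows of 250 bases before to 50 after the start, 26 of the 42 genes had a window, 5 of them of class II. The motifs searched, on the strand of the gene and its complement, were the X box core GCAAC and, 10 to 40 bases after it, the Y box core GATTGG. The pair was found in 4 of the 5 class II windows and in 0.502% of all 32851 windows, while GCAAC alone was found in 35.2% and GATTGG alone in 16.1% of them. The stretches run 5′ to 3′ along the gene, with the cores in capitals, and their positions are in RefSeq's GRCm38.p6, an older build than the GRCm39 of the count tables.
H2-Aa, chr17:34287855-34287916, minus strand: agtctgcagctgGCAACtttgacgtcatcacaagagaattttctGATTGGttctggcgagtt
H2-Eb1, chr17:34305764-34305824, plus strand: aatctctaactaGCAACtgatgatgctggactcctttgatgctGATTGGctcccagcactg
H2-Oa, chr17:34092291-34092352, plus strand: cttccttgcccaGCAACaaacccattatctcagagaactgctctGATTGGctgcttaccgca
H2-Ob, chr17:34238806-34238864, plus strand: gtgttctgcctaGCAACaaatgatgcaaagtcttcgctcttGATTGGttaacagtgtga
The gap between the cores was 27 bases in H2-Aa and H2-Oa, 26 in H2-Eb1 and 24 in H2-Ob. The fifth class II gene with a window, H2-DMa, held both cores but not in that order at that distance. These are matches of letters and show no binding.

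Library depth ran from 6654215 to 43494812 counts assigned to genes, and 3 of the 4 tumor-free libraries were the shallowest of all, at 6654215 to 8355021. Levels are given as CPM, counts scaled to a common library size with edgeR's trimmed mean of M values (TMM). The NK cell markers Ncr1 and Klrb1c, an activating receptor and the NK1.1 antigen, stood at 552 to 1463 and 629 to 1381 CPM over the 12 libraries, and no library lacked them. Fold changes and p-values come from edgeR's quasi-likelihood F test over all 12 libraries and 16016 genes, and genes are named as called where the p adjusted by the Benjamini-Hochberg method was under 0.05. In bulk RNA, fewer cells of a type and less RNA per cell cannot be told apart.

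Over the 42 genes the lymphatic replicate 1 library stood above the others. It was the highest of the 12 libraries for 27 of the 42 genes and the highest of its own group for 37. The tumor-free replicate 2 library was the lowest for 21 genes and had 0 counts for 10. Lymphatic replicate 1 was also the deepest of the 12 libraries, at 43494812 counts, and tumor-free replicate 2 the shallowest, at 6654215. The part of depth in these ranks and 0 counts was not tested.

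**Figure D1:**
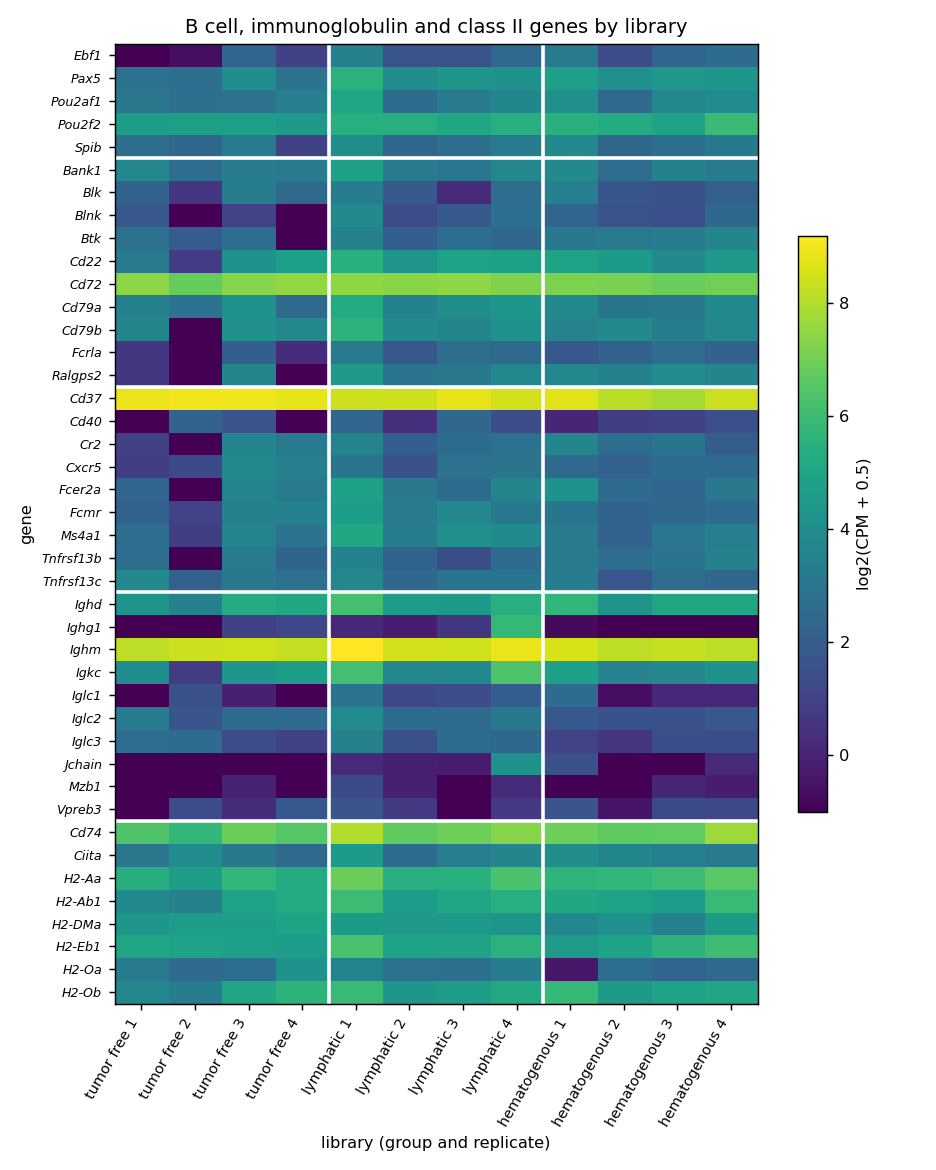
Level of each of the 42 genes (rows, grouped by role from transcription factors at the top to class II at the bottom) in each of the 12 libraries (columns), as log2(CPM + 0.5). Lymphatic replicate 1 is the brightest column for 27 genes, while Cd37, Cd72 and Ighm are bright in all 12 libraries.

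Of the 42 genes 41 passed the filter on low counts, and they were called no more often than genes at large. In the lymphatic against the tumor-free group 2.74% of all genes were called (2.32% higher and 0.418% lower), and 1 of the 41 was, Pax5. In the hematogenous against the tumor-free group 16.4% of all genes were called (9.52% higher and 6.87% lower), and 3 of the 41 were, Pax5 and Pou2f2 higher and Cd37 lower. Between the models 8.85% of all genes were called (2.93% higher and 5.92% lower), and 2 of the 41 were, Ighg1 and Iglc2, lower in the hematogenous group. That background was 469 higher and 948 lower genes with TMM and 744 higher and 590 lower genes when scaled by library size alone. The gene that the filter left out was Mzb1, a chaperone of antibody assembly, at 0 to 1.89 CPM.

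Groups that did not overlap were also counted. In the lymphatic comparison 3 of the 41 genes lay wholly above the tumor-free group (Ighm, Jchain and Pou2f2) and none below, while 9.9% of all genes did not overlap, 7.66% above and 2.24% below. In the hematogenous comparison 3 lay above (Btk, Pax5 and Pou2f2) and 1 below (Cd37), while of all genes 19.5% did not overlap, 11.5% above and 8.01% below. Between the models 6 lay lower in the hematogenous group (Cd72, Fcmr, H2-Oa, Ighg1, Iglc2 and Iglc3) and none higher, while of all genes 20.5% did not overlap, 9.17% higher and 11.3% lower.

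Median log2 changes of the 41 genes were 0.78 in the lymphatic and 0.37 in the hematogenous comparison with the tumor-free group, against 0.08 and 0.08 over all genes tested. Between the models the median was -0.33, against -0.01 over all genes. The 2 comparisons with the tumor-free group share its 4 libraries. At an unadjusted p under 0.05 there were 14, 8 and 8 of the 41 genes in these 3 comparisons. Over all 16016 genes there were 2189, 4706 and 3474, so only the lymphatic share of the list was above that of all genes. Of the 8 genes in the hematogenous comparison, Pax5, Pou2f2, Jchain and H2-Aa were higher and Cd37, Iglc2, H2-DMa and H2-Oa lower. These medians and counts rested in part on single libraries. Without lymphatic replicate 1 the median was 0.33 in the lymphatic comparison and -0.09 between the models, 7 and 3 genes were under that p, and no gene of the list was called between the lymphatic and tumor-free groups. For the hematogenous comparison the median was 0.12 without hematogenous replicate 1, 0.58 without hematogenous replicate 2, 0.23 without tumor-free replicate 2 and 0.60 without tumor-free replicate 3. Between the models it was -0.20 without hematogenous replicate 2, with 4 genes under that p. Tumor-free replicate 3 was the tumor-free library with the highest level for 19 of the 42 genes. Without it 5 genes of the list were called between the lymphatic and tumor-free groups. These were Cd74, Fcrla, Ms4a1, Pax5 and Ralgps2, all higher in the lymphatic group. In the hematogenous comparison the same omission gave 6 calls, with Ebf1, Fcrla and Ralgps2 added to Pax5, Pou2f2 and Cd37.

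**Figure D2:**
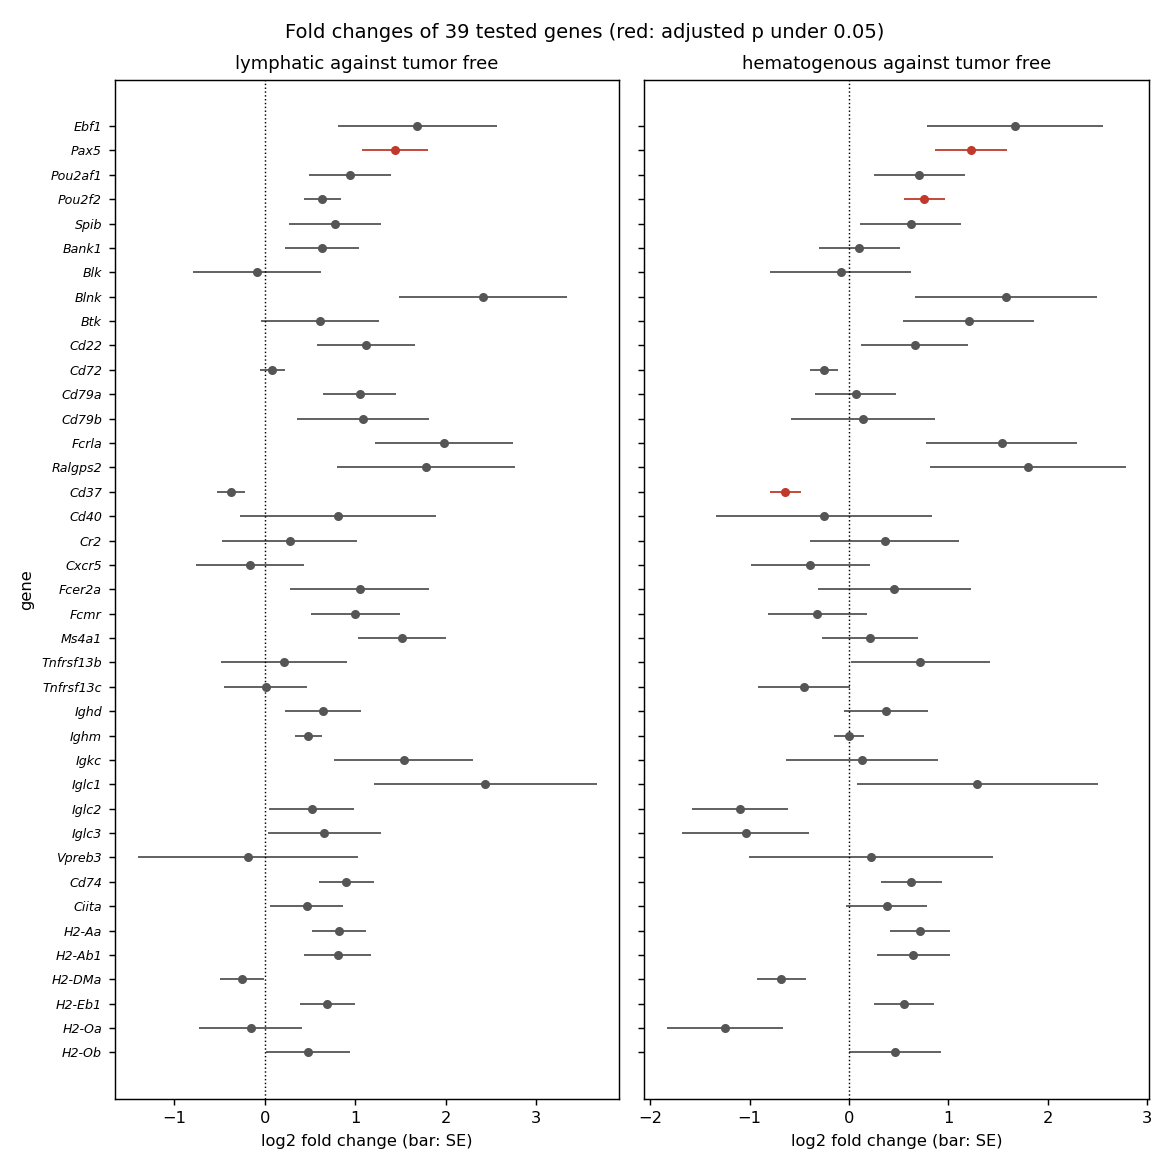
Log2 fold change of 39 tested genes (points, with their standard error as bars) in the lymphatic (left) and hematogenous (right) group against the tumor-free group, in the order of the heat map. Pax5 on the left and Pax5, Pou2f2 and Cd37 on the right, in red, are the genes called, and Ighg1 and Jchain are left out because whole groups stood at or near 0 counts.

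Both genes called higher than in the tumor-free nodes were transcription factors. Pax5, the factor that holds B cell identity, was at 6.66, 6.07, 15.4 and 6.91 CPM in tumor-free replicates 1 to 4. It was at 45.9, 14.6, 19.0 and 17.6 CPM in the lymphatic and at 26.3, 16.8, 21.1 and 20.1 CPM in the hematogenous libraries. All 4 hematogenous libraries lay above all tumor-free ones, while in the lymphatic group replicate 2 lay just under tumor-free replicate 3.
On the log2 scale Pax5 rose by 1.44 in the lymphatic (SE 0.36, edgeR adjusted p = 0.035) and by 1.23 in the hematogenous group (SE 0.36, edgeR adjusted p = 0.024). Neither call was firm. In the lymphatic comparison it was lost without tumor-free replicate 1, 2 or 4 (edgeR adjusted p from 0.104 to 0.114), without lymphatic replicate 1 (log2 fold change 0.94, edgeR adjusted p = 0.203) and without hematogenous replicate 2, 3 or 4 (edgeR adjusted p from 0.0502 to 0.0569). In the hematogenous comparison it was lost without tumor-free replicate 1, 2 or 4 or hematogenous replicate 1 or 3 (edgeR adjusted p from 0.0519 to 0.0648).

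Pou2f2 encodes Oct-2, an octamer-binding factor of mature B cells that other lymphocytes also make. Its levels were steadier, at 25.5, 26.9, 26.5 and 22.6 CPM in the tumor-free libraries, 42.8, 41.0, 33.2 and 41.0 CPM in the lymphatic and 43.5, 38.2, 28.6 and 61.5 CPM in the hematogenous ones. Both tumor groups lay wholly above the tumor-free group. Pou2f2 rose in the hematogenous group (log2 change 0.76, SE 0.21, edgeR adjusted p = 0.016), a call lost without hematogenous replicate 4 (0.54, edgeR adjusted p = 0.0839). In the lymphatic group its log2 fold change of 0.64 (SE 0.21) missed the threshold (edgeR adjusted p = 0.118).

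Ebf1, which acts with Pax5 in B cell commitment, was at 0, 0.148, 4.47 and 1.44 CPM in the tumor-free, 10.4, 2.60, 2.59 and 5.14 CPM in the lymphatic and 8.60, 2.12, 4.50 and 5.48 CPM in the hematogenous libraries. The groups overlapped through tumor-free replicate 3, and Ebf1 was not called in any comparison (edgeR adjusted p of at least 0.217). The other factors, Spib and Pou2af1, were not called either. They were highest in lymphatic replicate 1, at 16.6 and 31.5 CPM, and ran from 1.44 to 13.5 and from 5.30 to 16.7 CPM elsewhere.

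The receptor complex itself was low and followed single libraries. Cd79a, the signalling chain alpha of the complex, was at 10.3, 6.95, 18.2 and 5.04 CPM in the tumor-free, 38.1, 10.7, 16.5 and 19.9 CPM in the lymphatic and 13.4, 7.37, 8.31 and 14.2 CPM in the hematogenous libraries. Its partner chain Cd79b was at 11.9, 0, 17.2 and 12.8 CPM, at 47.3, 13.3, 12.0 and 17.7 CPM, and at 10.9, 14.1, 9.39 and 12.6 CPM in the same order. In both genes lymphatic replicate 1 was the highest library and the other libraries of the 3 groups overlapped. Neither gene was called in any comparison. The smallest edgeR adjusted p was 0.148, for Cd79a between the models.

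The kinases downstream of the receptor did not move together. Btk, the kinase mutated in X-linked agammaglobulinemia, was at 6.66, 3.40, 5.96 and 0 CPM in the tumor-free libraries and at 7.85, 8.58, 9.20 and 12.0 CPM in the hematogenous ones, which lay wholly above them, but it was not called (edgeR adjusted p = 0.235). Its lymphatic libraries, at 10.8, 3.58, 5.89 and 4.64 CPM, overlapped both other groups. Blk, a Src family kinase of B cells, was at 1.04 to 9.54, 0.707 to 9.35 and 2.41 to 10.1 CPM in the tumor-free, lymphatic and hematogenous groups, with group means of 4.99, 4.74 and 4.81 CPM. The adaptor Blnk, the scaffold Bank1, the exchange factor Ralgps2, the Fc receptor-like protein Fcrla and the inhibitory receptor Cd22 were not called, and all 5 were highest in lymphatic replicate 1. Cd22 was at 44.3 CPM there and at 1.18 CPM in tumor-free replicate 2.

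Cd72 stood apart from these genes in its level. This inhibitory coreceptor of B cells was at 170, 111, 161 and 185 CPM in the tumor-free, 177, 164, 176 and 149 CPM in the lymphatic and 143, 139, 117 and 129 CPM in the hematogenous libraries. The hematogenous libraries lay wholly below the lymphatic ones, but the difference was not called (log2 change -0.33, SE 0.14, edgeR adjusted p = 0.160). Its highest library was 1.67 times its lowest, the smallest such ratio of the 27 genes with counts in all 12 libraries.

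Among the surface receptors only Cd37 was called, and it was lower. Cd37, a tetraspanin made by B cells and by other leukocytes, was at 476, 496, 504 and 454 CPM in the tumor-free libraries. It was at 338, 336, 456 and 361 CPM in the lymphatic and at 411, 278, 223 and 328 CPM in the hematogenous ones. All hematogenous libraries lay below all tumor-free ones. Cd37 fell by 0.64 on the log2 scale in the hematogenous group (SE 0.15, edgeR adjusted p = 0.0078), and this call held in all 22 alternatives. In the lymphatic group the log2 fold change was -0.37 (SE 0.15, edgeR adjusted p = 0.259), and between the models its libraries overlapped.

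Ms4a1, which encodes CD20, was at 5.73, 1.33, 11.4 and 6.76 CPM in the tumor-free, 33.5, 9.43, 16.8 and 13.9 CPM in the lymphatic and 8.60, 4.14, 7.61 and 9.64 CPM in the hematogenous libraries. Each group overlapped its neighbours, the lymphatic group through replicate 2. The log2 fold change was 1.51 (SE 0.48, edgeR adjusted p = 0.115) in the lymphatic against the tumor-free group. Fcmr, the receptor for IgM, was at 24.9, 8.42, 13.0 and 7.97 CPM in the lymphatic and 7.37, 4.24, 4.82 and 5.41 CPM in the hematogenous libraries, which lay wholly below them (log2 change -1.32, SE 0.50, edgeR adjusted p = 0.111). In the tumor-free libraries Fcmr was at 3.98, 1.63, 10.5 and 10.8 CPM. The complement receptor Cr2, the IgE receptor Fcer2a, the costimulatory receptor Cd40, the follicle-homing receptor Cxcr5 and the receptors for the survival factors BAFF and APRIL, Tnfrsf13c and Tnfrsf13b, were not called and reached at most 28.0 CPM in any library.

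Without Cd37 and Cd72, the 22 genes of these 3 roles gave summed levels of 142, 75.3, 235 and 156 CPM in tumor-free replicates 1 to 4. The sums were 502, 180, 219 and 260 CPM in the lymphatic and 283, 180, 195 and 255 CPM in the hematogenous libraries. The lymphatic mean of 290 ± 145 CPM (SD, n = 4) became 220 CPM without replicate 1, close to the hematogenous mean of 228 ± 48.8 CPM (SD, n = 4). The tumor-free mean was 152 ± 65.7 CPM (SD, n = 4). The 3 groups overlapped. Beside these sums, the 16 NK cell markers together ran from 13837 to 16569 CPM in the tumor-free, from 12837 to 16262 CPM in the lymphatic and from 9248 to 11164 CPM in the hematogenous libraries, with 11 of 16 called lower in the hematogenous against the tumor-free group, 10 lower than in the lymphatic group and 1 lower in the lymphatic against the tumor-free group. The 14 T cell markers summed to 928 to 1151, 963 to 1267 and 1169 to 1456 CPM in the 3 groups, with 4 called higher in the hematogenous against the tumor-free group, 2 higher than in the lymphatic group and 1 lower in the lymphatic against the tumor-free group. One of them was Cd3e, a chain of the T cell receptor complex, at 13.0 to 70.0 CPM in the tumor-free and 82.8 to 126 CPM in the hematogenous libraries. Of all genes 6.87% were called lower and 9.52% higher in the hematogenous against the tumor-free group. Between the models 5.92% were called lower and 2.93% higher in the hematogenous group, and in the lymphatic comparison 0.418% were called lower. The part of NK and T cell RNA in the levels above was not tested.

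**Figure D3:**
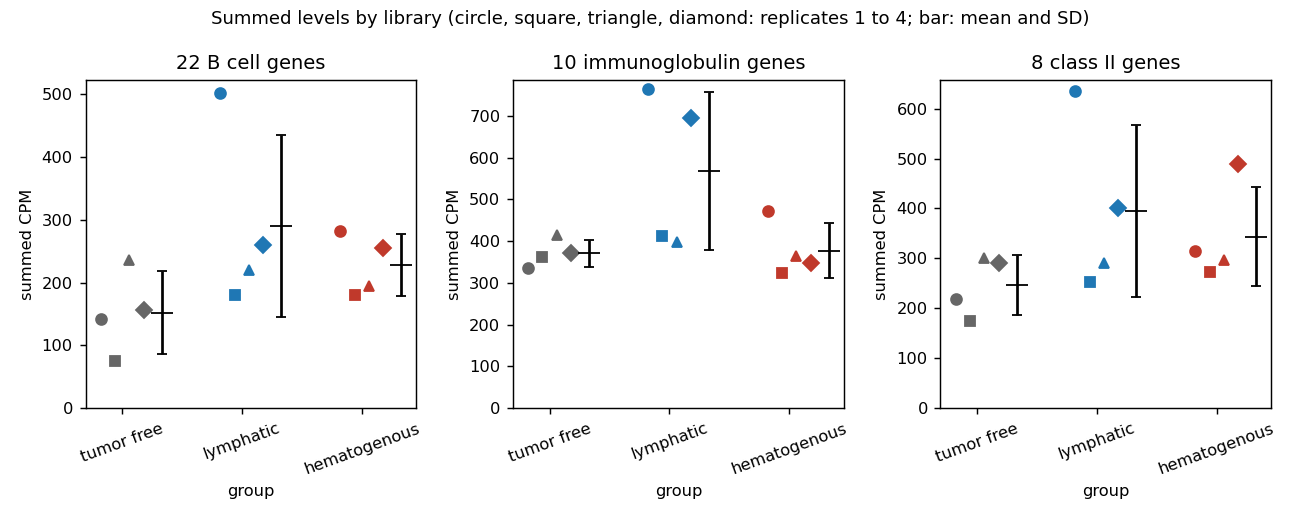
Summed CPM of the 22 genes of transcription factors, receptor signalling and surface receptors without Cd37 and Cd72 (left), of the 10 immunoglobulin genes (middle) and of the 8 class II genes (right) by group. Symbols are libraries and bars are mean and SD. Lymphatic replicate 1, the circle at 502, 764 and 635 CPM, is the highest library in each panel, and the groups overlap.

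Of the immunoglobulin chains, Ighm was the most abundant by far. It encodes the constant region of the mu heavy chain. Per kilobase of exon it averaged 191 CPM over the 12 libraries, above Cd37 (110 CPM per kilobase), Cd74 (75.9), Igkc (48.1) and Cd72 (44.3), and the other 37 genes were at or below 19.6. Ighm was at 288, 338, 345 and 301 CPM in the tumor-free, 583, 364, 348 and 481 CPM in the lymphatic and 381, 290, 313 and 290 CPM in the hematogenous libraries. All 4 lymphatic libraries lay above the tumor-free ones, though replicate 3 by little, and the difference was not called (log2 change 0.48, SE 0.15, edgeR adjusted p = 0.104). It was called without lymphatic replicate 3 (0.59). Between the models the difference lay just outside the threshold (log2 change -0.48, SE 0.15, edgeR adjusted p = 0.051), and inside it without lymphatic replicate 2 or 3.

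The light chains did not keep step with the mu chain. Igkc, the kappa constant region, was at 14.8, 1.18, 19.8 and 25.3 CPM in the tumor-free, 70.9, 12.7, 13.2 and 81.6 CPM in the lymphatic and 26.1, 11.1, 12.6 and 17.9 CPM in the hematogenous libraries. Its highest library was 68.9 times its lowest, against 2.03 times for Ighm. For each 100 mu counts there were 0.351 to 8.42 kappa counts in the tumor-free, 3.48 to 17.0 in the lymphatic and 3.82 to 6.85 in the hematogenous libraries. Tumor-free replicate 2, with 8 kappa counts beside 2281 mu counts, had the fewest. Ighd, the delta chain of mature naive B cells, was at 18.7, 10.7, 38.2 and 34.3 CPM, at 72.4, 23.5, 22.7 and 41.3 CPM, and at 51.5, 18.8, 31.6 and 31.4 CPM in the tumor-free, lymphatic and hematogenous libraries. Neither Igkc nor Ighd was called in any comparison (edgeR adjusted p of at least 0.332).

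Of the 3 lambda constant regions in the list 1 was called. Iglc2 was at 14.5, 5.52, 5.36 and 8.18 CPM in the lymphatic and at 3.02, 2.47, 2.41 and 3.07 CPM in the hematogenous libraries, with no overlap. In the tumor-free libraries it was at 9.47, 2.81, 5.62 and 5.47 CPM. Iglc2 fell by 1.61 on the log2 scale between the models (SE 0.48, edgeR adjusted p = 0.042). The call stood in 7 of 21 alternatives. It was lost without tumor-free replicate 3, without lymphatic replicate 1, 2 or 4 and without any single hematogenous replicate, with edgeR adjusted p from 0.0506 to 0.237, the highest without lymphatic replicate 1.
Iglc3 was at 10.2, 2.38, 5.48 and 4.89 CPM in the lymphatic and 1.61, 1.01, 2.22 and 2.26 CPM in the hematogenous libraries, again without overlap, and was not called (log2 change -1.70, SE 0.64, edgeR adjusted p = 0.111). Iglc1 was at 0 to 2.37, 1.80 to 7.08 and 0.151 to 5.39 CPM in the tumor-free, lymphatic and hematogenous groups, which overlapped, and was not called in any comparison (edgeR adjusted p of at least 0.404). In the tumor-free libraries Iglc3 was at 5.85, 5.33, 2.04 and 1.44 CPM. The annotated sequences of Iglc2 and Iglc3 are 96.5% identical over 314 aligned bases, so the split of reads between them is uncertain. Kappa made up 70.6% to 75.3% of the constant region light chain counts in the hematogenous libraries, 50.3% to 83.0% in the lymphatic and 10.1% to 78.6% in the tumor-free ones.

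Class-switched heavy chains, which B cells make after activation, came mostly from single libraries. Ighg1 had 0, 0, 34 and 12 counts in the tumor-free, 25, 13, 18 and 1306 in the lymphatic and 1, 0, 0 and 0 in the hematogenous libraries. Lymphatic replicate 4 held most of them, at 55.1 CPM. Ighg1 was called lower in the hematogenous than in the lymphatic group (edgeR adjusted p = 0.028). The call was lost without lymphatic replicate 4 (edgeR adjusted p = 0.178) and without any single hematogenous replicate (edgeR adjusted p from 0.0655 to 0.124). No fold is given, since the hematogenous group held 1 count.
In Ighg2c, which is not among the 42 genes, hematogenous replicate 1 held 472 counts (44.6 CPM) and the other libraries 0 to 23. Switched classes thus made up 9.71% of heavy constant counts in lymphatic replicate 4 (95% exact binomial interval 9.22 to 10.2) and 10.1% in hematogenous replicate 1 (9.24 to 10.9), and 0% to 1.52% in the other 10 libraries. These intervals cover counting error only, since the reads carry no molecular identifiers.

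Jchain, which links IgM and IgA subunits, is made by antibody-secreting cells. It had 0 counts in all 4 tumor-free libraries, 29, 16, 6 and 418 in the lymphatic and 25, 0, 0 and 9 in the hematogenous ones. Against a floor of 3 counts over the tumor-free group its level pooled over the lymphatic libraries was at least 59.8-fold higher, and that over the hematogenous libraries at least 8.66-fold higher. These bounds rested on single libraries. Without lymphatic replicate 4 the first was 8.11-fold, without hematogenous replicate 1 the other was 2.78-fold, and without tumor-free replicate 3, the deepest of its group, they were 29.1-fold and 4.21-fold. It was not called in the lymphatic comparison (edgeR adjusted p = 0.059) and was called there without hematogenous replicate 1 (edgeR adjusted p = 0.0469). The plasma cell gene Tnfrsf17 had 14 counts, all in lymphatic replicate 4, and 0 counts in the other 11 libraries. Another plasma cell marker, Sdc1, was at 0 to 3.92 CPM. Of the plasma cell list, 9 of 10 genes were tested and none was called against the tumor-free group, with 0 and 3 genes at an unadjusted p under 0.05 in the lymphatic and the hematogenous comparison. Between the models Xbp1 was called lower in the hematogenous group. Of all genes 2.74%, 16.4% and 8.85% were called in the lymphatic, hematogenous and model comparisons.

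**Figure D4:**
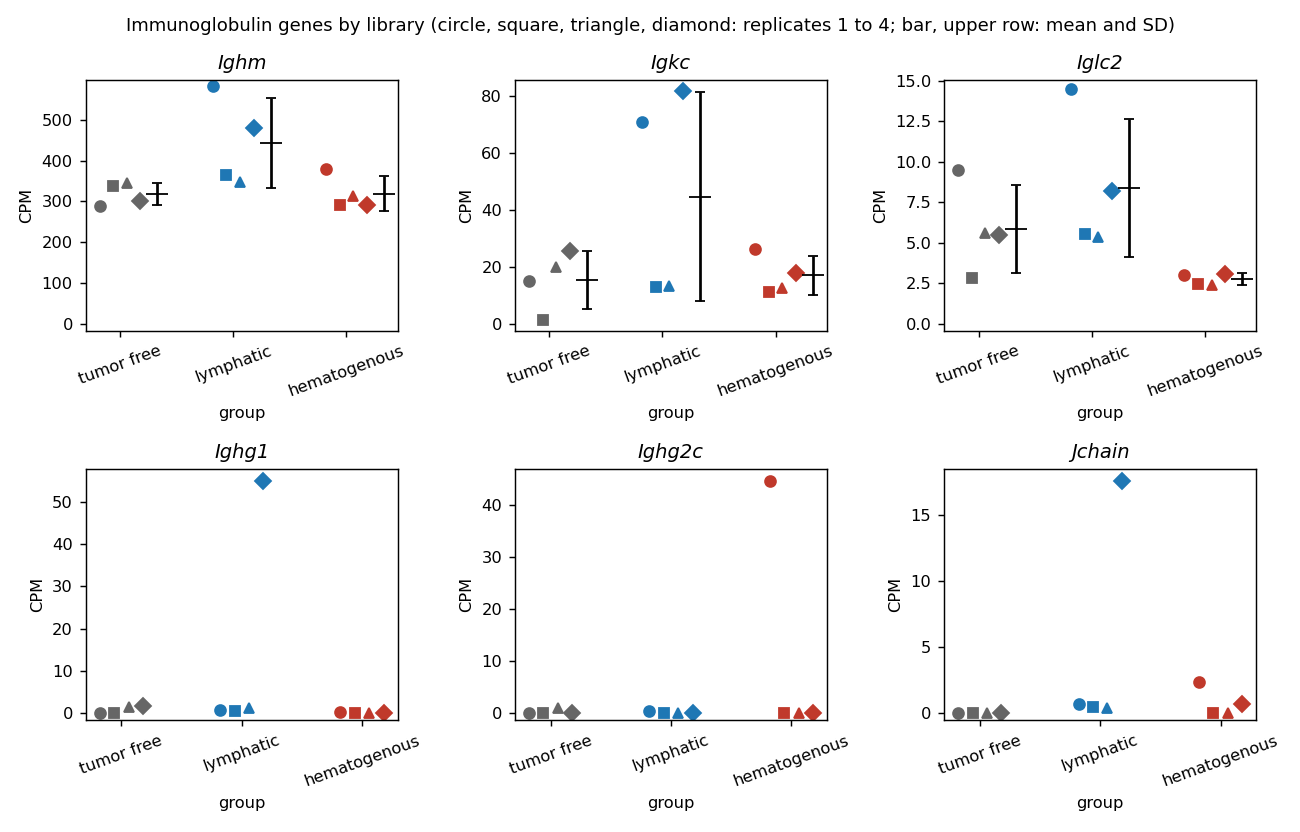
CPM of 6 immunoglobulin genes by group (symbols are libraries, bars in the upper row mean and SD). Ighm is at 288 CPM or more in every library, the hematogenous libraries lie below the lymphatic ones for Iglc2 while overlapping the tumor-free ones, and a single library carries most of Ighg1 and Jchain (lymphatic replicate 4) and of Ighg2c (hematogenous replicate 1).

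Counts of variable segments, which are also outside the list, were compared within each library. Kappa variable segments had 85, 19, 376 and 105 counts in the tumor-free, 2045, 410, 243 and 1587 in the lymphatic and 121, 146, 223 and 166 in the hematogenous libraries. Igkv3-7 had 0 of the 585 tumor-free kappa segment counts, which allows a share of up to 0.513%. It had 521, 31, 11 and 70 counts in the lymphatic and 14, 12, 65 and 84 in the hematogenous libraries, so that all 8 tumor libraries held it. It was the leading kappa segment of lymphatic replicate 1, at 25.5% (95% exact binomial interval 23.6 to 27.4), and of hematogenous replicates 3 and 4, at 29.1% (23.3 to 35.6) and 50.6% (42.7 to 58.4). In the other 5 tumor libraries its share was 4.41% to 11.6%.
Against a floor of 3 counts over the tumor-free group, Igkv3-7 pooled over the lymphatic libraries was at least 80.7-fold higher, and pooled over the hematogenous ones at least 44.6-fold higher. Without lymphatic replicate 1 the first bound was 22.1-fold, and without tumor-free replicate 3 the bounds were 39.3-fold and 21.7-fold. Igkv3-7 and the other leading segments were singled out by their counts in these libraries, so their levels are a description and no test is given. Its nearest annotated relative, Igkv3-12, is 96.6% identical over 290 aligned bases and had 0, 26 and 4 counts in the 3 groups, so the split of reads between them is uncertain. The shallow depth of the tumor-free kappa counts limits the comparison of shares. Tumor-free replicates 1 to 4 had counts for only 4, 1, 26 and 3 of the 160 kappa segments, so 0 counts were usual there.

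Ighv3-6 showed part of the same distribution among the heavy chain segments. It had 0 of 413 tumor-free counts, which allows a share of up to 0.726%, 267, 10, 0 and 22 counts in the lymphatic and 0, 16, 37 and 66 in the hematogenous libraries. It was the leading heavy segment of lymphatic replicate 1, at 20.4% (95% exact binomial interval 18.3 to 22.7), and of hematogenous replicate 4, at 31.4% (25.2 to 38.2). These libraries were also led by Igkv3-7 among the kappa segments, while lymphatic replicate 3 and hematogenous replicate 1 held Igkv3-7 without Ighv3-6. Over the same floor Ighv3-6 was at least 38.1-fold higher when pooled over the lymphatic libraries and at least 30.3-fold higher when pooled over the hematogenous ones. The bounds were 6.31-fold without lymphatic replicate 1 and 17.5-fold without hematogenous replicate 4. Without tumor-free replicate 3 they were 18.5-fold and 14.8-fold.

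The other leading segments differed from library to library. Igkv14-111 led the kappa counts of 7 libraries, among them all 4 tumor-free ones (51, 19, 53 and 80 counts). Igkv8-30 led in lymphatic replicate 4, the library with most Ighg1 and Jchain counts, at 27.4%, and Ighv5-16 led its heavy segments at 30.8%. Both had 0 counts in all 4 tumor-free libraries, as had Ighv6-6, the leading heavy segment of hematogenous replicate 2. Igkv4-59 led in hematogenous replicate 1, the library with most Ighg2c counts, at 32.2%, and Ighv1-72 led its heavy segments at 33.7%. Among the lambda segments, Iglv2 had 45 counts in the tumor-free, 141 in the lymphatic and 0 in the hematogenous group, so that it was at least 19.6-fold lower than in the tumor-free and at least 23.5-fold lower than in the lymphatic group. Of the tumor-free counts 31 were in replicate 2, and the first bound was 7.17-fold without it and 31.4-fold without tumor-free replicate 3. The bound against the lymphatic group ran from 15.7-fold to 25.7-fold without single libraries. Lambda segments had 79, 461 and 7 counts in all in the tumor-free, lymphatic and hematogenous groups. The 0 Iglv2 counts of the hematogenous group thus allow a share of up to 42.9%. Iglv1 had 34, 320 and 7 counts in the same order, so few hematogenous counts were not particular to Iglv2.

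**Figure D5:**
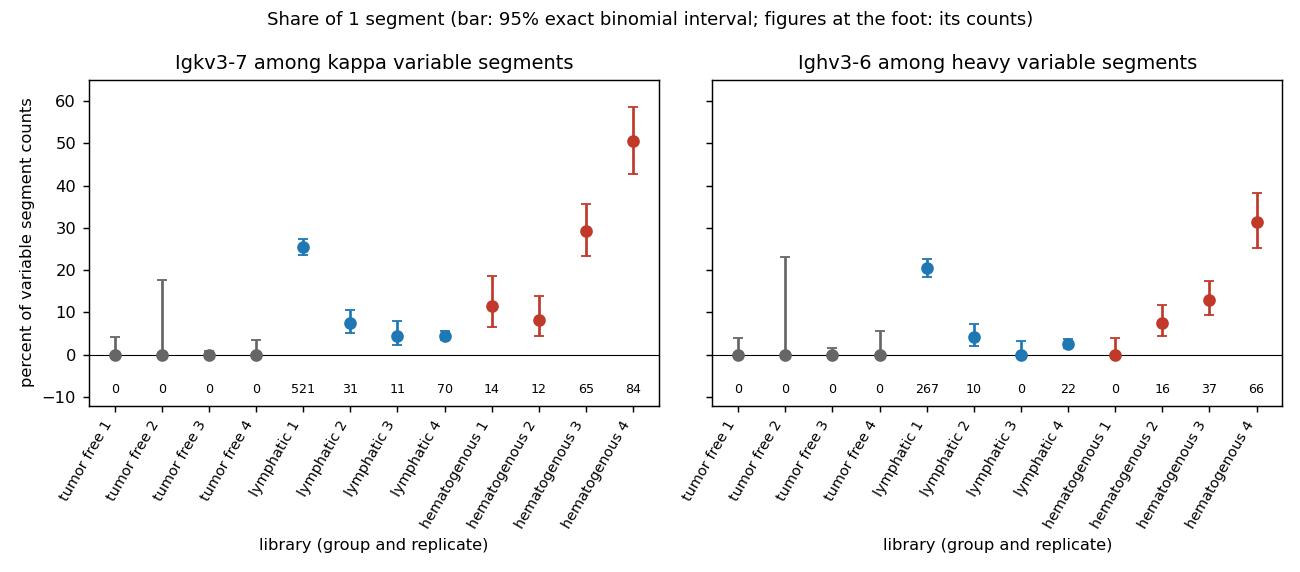
Share of Igkv3-7 among kappa (left) and of Ighv3-6 among heavy chain variable segment counts (right) in each library, in percent, with 95% exact binomial intervals and the segment's counts at the foot. Both are at 0 in the 4 tumor-free libraries, Igkv3-7 is above 0 in all 8 tumor libraries, and hematogenous replicate 4 has the highest share of each, 50.6% and 31.4%.

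At an unadjusted p under 0.05 there were 2189, 4706 and 3474 of all 16016 genes in the lymphatic, hematogenous and model comparisons. Of the 8 class II genes there were 4, 3 and 0, and none of the 8 was called. The 4 of the lymphatic comparison, Cd74, H2-Aa, H2-Ab1 and H2-Eb1, were all higher. The 3 of the hematogenous comparison were mixed, with H2-Aa higher (log2 change 0.72) and H2-DMa and H2-Oa lower (-0.68 and -1.25). Cd74, the invariant chain that guides class II molecules to the endosome, was the most abundant of the 8. It was at 81.8, 53.6, 120 and 90.1 CPM in the tumor-free, 262, 102, 123 and 161 CPM in the lymphatic and 122, 101, 107 and 206 CPM in the hematogenous libraries. Lymphatic replicate 1 and hematogenous replicate 4 were the highest, and both tumor groups overlapped the tumor-free group through its replicate 3. The log2 fold change was 0.90 (SE 0.31, edgeR adjusted p = 0.166) in the lymphatic comparison and passed the threshold without tumor-free replicate 3 (1.12, edgeR adjusted p = 0.0496). Without lymphatic replicate 1 it was 0.58 (edgeR adjusted p = 0.368). In the hematogenous comparison it was 0.63 (SE 0.31, edgeR adjusted p = 0.187), and 0.36 without hematogenous replicate 4.

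The classical class II chains showed the same high libraries. H2-Aa, the alpha chain of I-A, was at 40.7, 24.9, 53.9 and 38.0 CPM in the tumor-free, 116, 42.6, 44.1 and 77.0 CPM in the lymphatic and 49.3, 52.9, 63.7 and 94.7 CPM in the hematogenous libraries. Its beta chain partner H2-Ab1 was at 14.0, 10.2, 29.1 and 38.1 CPM, at 62.9, 24.4, 31.3 and 41.8 CPM, and at 33.2, 29.9, 24.0 and 57.1 CPM. H2-Eb1, the beta chain of I-E, was at 31.8, 29.6, 26.5 and 24.3 CPM, at 76.9, 29.9, 28.7 and 45.7 CPM, and at 24.5, 29.2, 46.7 and 64.4 CPM. In all 3 genes lymphatic replicate 1 was the highest library and hematogenous replicate 4 the highest of its group. Log2 fold changes in the lymphatic comparison were 0.82 (SE 0.30), 0.81 (SE 0.37) and 0.69 (SE 0.30), with edgeR adjusted p of 0.191, 0.343 and 0.302. Without lymphatic replicate 1 they were 0.47, 0.51 and 0.32, with edgeR adjusted p of 0.560, 0.692 and 0.784. In the hematogenous comparison they were 0.72 (SE 0.30), 0.65 (SE 0.37) and 0.55 (SE 0.30), with edgeR adjusted p of 0.116, 0.263 and 0.237. Without hematogenous replicate 4 the latter were 0.49, 0.35 and 0.26.
The alpha chain of I-E is a known gap of C57BL/6 mice, whose H2-Ea carries a deletion of its promoter. Its annotated pseudogene H2-Ea-ps had 8 counts in lymphatic replicate 2 and 0 in the other 11 libraries.

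Ciita, the coactivator of class II genes, was at 7.72, 15.4, 8.14 and 5.18 CPM in the tumor-free, 22.9, 5.60, 9.66 and 11.8 CPM in the lymphatic and 16.1, 12.3, 10.0 and 8.91 CPM in the hematogenous libraries. These ranges overlapped, and hematogenous replicate 4, the highest of its group for Cd74 and the classical chains, had the lowest Ciita level of that group.
None of the genes of peptide loading was called. H2-DMa, which helps to load peptides, was at 20.5 to 29.6 CPM in the tumor-free, 18.6 to 22.8 in the lymphatic and 10.2 to 22.9 in the hematogenous libraries, and its log2 fold change of -0.68 (SE 0.25) in the hematogenous comparison missed the threshold (edgeR adjusted p = 0.064). It passed without hematogenous replicate 4 (-0.91, edgeR adjusted p = 0.024). H2-Oa, the alpha chain of the inhibitor of loading that B cells make, was at 9.00, 5.47, 5.84 and 18.1 CPM in the tumor-free, 11.7, 6.70, 6.36 and 9.57 CPM in the lymphatic and 0.284, 5.96, 4.44 and 5.26 CPM in the hematogenous libraries. The hematogenous libraries lay wholly below the lymphatic ones, without a call (log2 change -1.09, SE 0.58, edgeR adjusted p = 0.289). Its partner H2-Ob was at 9.32 to 47.6, 20.4 to 59.9 and 23.2 to 56.5 CPM in the 3 groups, with log2 fold changes of 0.48 (SE 0.46) in the lymphatic and 0.46 (SE 0.46) in the hematogenous comparison. Hematogenous replicate 1, the lowest library for H2-Oa, was the highest of its group for H2-Ob.

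The 8 class II genes summed to 218, 174, 300 and 291 CPM in the tumor-free, 635, 253, 291 and 400 CPM in the lymphatic and 315, 272, 296 and 490 CPM in the hematogenous libraries. The lymphatic mean of 395 ± 172 CPM (SD, n = 4) became 315 CPM without replicate 1, beside 343 ± 99.3 CPM (SD, n = 4) in the hematogenous and 246 ± 60.3 CPM (SD, n = 4) in the tumor-free group. Hematogenous replicate 4 was the second highest for this sum but for the 22 B cell genes it lay behind lymphatic replicates 1 and 4 and hematogenous replicate 1. The other genes of the class II pathway, 17 in all with 16 tested, gave 1 call against the tumor-free group. Ctss, a protease that degrades the invariant chain, rose in the lymphatic group (54.3 to 110 CPM on average, log2 change 1.02, SE 0.17, edgeR adjusted p = 0.0017). Between the models Ctss was also the 1 gene of that list called, lower in the hematogenous group (log2 change -0.57). Of all genes 2.74%, 16.4% and 8.85% were called in the lymphatic, hematogenous and model comparisons.

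Other cells that carry class II molecules were looked for by their markers. Beside the calls given below, 2.74%, 16.4% and 8.85% of all genes were called in the lymphatic, hematogenous and model comparisons. Of 14 dendritic cell markers 9 were tested and 1 was called against the tumor-free group. Itgax (CD11c) was called lower in the hematogenous than in the lymphatic group. The gene called against the tumor-free group was Flt3, a growth factor receptor of dendritic cells and their precursors, at 0, 0, 0.724 and 0 CPM in the tumor-free and 3.02, 2.32, 1.59 and 4.38 CPM in the hematogenous libraries (log2 change 3.60, SE 1.19, edgeR adjusted p = 0.044). The list summed to 802 to 968, 1141 to 1500 and 618 to 1034 CPM in the tumor-free, lymphatic and hematogenous groups, nearly all of it Itgax, which NK cells also make. The defining markers Clec9a and Xcr1 were at 0 to 1.14 and 0 to 3.27 CPM.
Of 14 macrophage and monocyte markers 12 were tested. In the lymphatic comparison Cd68 was called higher, and between the models none was called by edgeR, with 2 at an unadjusted p under 0.05. In the hematogenous comparison 4 were called higher and 1 lower, among them Csf1r, the receptor of a macrophage growth factor, at 4.79, 1.78, 5.37 and 12.1 CPM in the tumor-free and 11.2, 24.2, 16.2 and 27.3 CPM in the hematogenous libraries (log2 change 1.72, SE 0.44, edgeR adjusted p = 0.012). That list summed to 247 to 421, 252 to 363 and 325 to 406 CPM. Cd14 was at 0 in all 4 tumor-free libraries. Hematogenous replicate 4, the highest of its group for the classical class II chains, was also the highest of its group for Flt3 and Csf1r. Its sum of the dendritic cell list, 618 CPM, was the lowest of its group. Its sum of the macrophage list, 404 CPM, lay under the 406 CPM of replicate 2. Of the 12 macrophage and monocyte genes tested, 6 rose and 6 fell in the hematogenous comparison. The part of dendritic cells and macrophages in the class II levels was not tested.

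A further 20 B cell genes outside the list were also tested. In the lymphatic comparison 2 were called higher, Bach2 and Cd55, and in the hematogenous comparison Bach2 alone, beside 2.32% and 9.52% of all genes. At an unadjusted p under 0.05 there were 9 and 6 of the 20, beside 2189 and 4706 of all 16016 genes. Wholly above the tumor-free group lay 6 and 4, beside 7.66% and 11.5% of all genes, and 0 lay below. Between the models 2 were called lower in the hematogenous group, Cd55 and Cd38, beside 5.92% of all genes. Bach2, a repressor that B cells and other lymphocytes make, was at 68.2, 42.0, 65.9 and 58.6 CPM in the tumor-free, 104, 84.2, 97.2 and 102 CPM in the lymphatic and 124, 99.5, 104 and 111 CPM in the hematogenous libraries, so that both tumor groups lay above the tumor-free group. On the log2 scale it rose by 0.72 in the lymphatic (SE 0.15, edgeR adjusted p = 0.0095) and by 0.90 in the hematogenous group (SE 0.15, edgeR adjusted p = 0.00066).

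Signalling genes that B cells share with NK cells gave another count. Of 12 such genes 1 was called higher in the lymphatic comparison, the adaptor Pik3ap1, and 4 were called lower in the hematogenous comparison, led by the phosphatase Ptpn6 (335 and 160 CPM on average, log2 change -1.07, SE 0.17, edgeR adjusted p = 0.00043). Between the models 6 were called lower in the hematogenous group, Ptpn6 and Pik3ap1 by most. Of all genes 2.32% were called higher in the lymphatic comparison, 6.87% lower in the hematogenous one and 5.92% lower between the models. Of 12 germinal center genes 8 were tested, and in the lymphatic comparison Bcl6 and Irf4 were called higher and Bcl2 lower. Against the tumor-free group S1pr2 was called lower in the hematogenous one, and between the models Bcl2 was called higher and Myc and Bcl6 lower in the hematogenous group. Of all genes 2.74%, 16.4% and 8.85% were called in either direction in the lymphatic, hematogenous and model comparisons. Bcl6, a repressor needed for the germinal center, was at 41.0, 36.0, 34.8 and 48.1 CPM in the tumor-free and 67.5, 52.9, 69.4 and 69.7 CPM in the lymphatic libraries (log2 change 0.70, SE 0.18, edgeR adjusted p = 0.037).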

How the data were processed

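The authors deposited raw read counts per gene, 1 table per library. The tools, per the submitters' processing notes, were HTSeq 2.0.2, HISAT2 2.1.0, Trimmomatic 0.39 and FastQC 0.11.9, and the build was GRCm39. No source used here gives the annotation release or the strand option, so overlapping and antisense genes may share reads. Groups come from the sample titles. Gene symbols come from GENCODE M21 (52073 of 56748 identifiers, 99.5% of counts), and summary lines that name no gene were left out. Promoter stretches come from RefSeq, and motifs were searched by exact letters.

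All 12 libraries entered 1 edgeR 4.0.16 model of group (R 4.3.3, TMM, default filter by group, robust quasi-likelihood F test, 9 residual degrees of freedom), tested on simulated data. Standard errors are the size of the log2 change over the square root of F. A group with 0 counts is taken at a floor of 3 counts over the group, which covers counting error only. Shares have exact (Clopper-Pearson) intervals at 95%. Depth is lowest in 3 tumor-free libraries, which measure low genes least precisely.

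The 42 genes and all lists were chosen with earlier results of these data known. Named were the genes called, those whose compared groups did not overlap, a set of defining B cell, immunoglobulin and class II genes, the most significant called genes of each other list, at most 3, a few cell type markers, and the leading variable segment of each library. Some genes that this rule names are not reported here. Alternatives were other scalings, filters, DESeq2 1.42.0, fits of 2 groups, a replicate block, immunoglobulin genes left out, equal depth and each library left out. Bounds against groups with 0 counts were recomputed without each library, a choice made after seeing the data.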

Additional observations from a re-analysis of the deposited data

Results flagged for a closer look

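Of 134 sets of 4 libraries, 125 of single genes and 9 of summed levels, 10 (7.46%), each of a single gene, had 1 library that lay far from the rest by Dixon's criterion, which chance alone meets in about 1 in 20. In the lymphatic group replicate 1 was far above the others for Cd79b (47.3 CPM, next 17.7) and Pax5 (45.9 CPM, next 19.0). Replicate 4 was far above them for Ighg1 (55.1 CPM, next 1.06) and Jchain (17.6 CPM, next 0.685), and replicate 2 was low for Cxcr5 (2.38 CPM, next 6.66). In the tumor-free group replicate 3 was high for Pax5 (15.4 CPM, next 6.91), Ralgps2 (12.1 CPM, next 1.05) and Mzb1 (0.511 CPM, the others at 0). In the hematogenous group replicate 1 was high for Iglc1 (5.39 CPM, next 0.634), and it held the group's single Ighg1 count (0.0945 CPM, the others at 0).

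The effects of the models against the tumor-free group differed by the test of the difference for Ighg1 (fitted log2 difference -9.22, edgeR adjusted p = 0.028) and Iglc2 (-1.61, edgeR adjusted p = 0.042), both lower in the hematogenous group in 4 of 4 libraries. The value for Ighg1 is no measure of size, since it depends on the prior count, and 1306 of the 1362 lymphatic counts came from replicate 4. Across all genes 8.85% differed in this way.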

How the results depend on the processing

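Without single libraries the list gave 0 to 5 calls in the lymphatic, 2 to 6 in the hematogenous and 0 to 3 in the comparison of the models, and all genes gave 255 to 634, 1760 to 3202 and 620 to 1572. In the lymphatic comparison no filter gave 5 calls in the list (H2-Aa, Ighm, Jchain, Ms4a1 and Pax5), the 2 compared groups alone gave 0, and DESeq2 gave 729 calls over all genes. In the hematogenous comparison no filter gave 5 calls in the list, with H2-Aa and Jchain added. Between the models the list gave 1 call with DESeq2 size factors, upper quartile scaling or library size alone, 0 at equal depth, and 4 with the 2 groups alone (Fcmr, Iglc2, Iglc3 and Ms4a1). Without immunoglobulin genes it gave 0 as well, but that setting removes both genes called, Ighg1 and Iglc2. Ighg1 changed sign in the lymphatic comparison without lymphatic replicate 4, from 4.08 to -0.29, and without other single libraries reached 4.66. The group means of the summed levels, here with Cd37 and Cd72 in the B cell sum, moved by less than their SD in 63 of 63 cases. Leaving out 1 library of 4 cannot move a mean by as much as the SD. Those cases could therefore not come out otherwise, and only the other scalings were open. Of 49 values that were neither called nor named for a difference, 24 changed sign somewhere and 4 were called in at least 1 alternative. Scaling by library size alone moved the median of all genes between the models from -0.01 to 0.10. Depth limits what 0 counts show in the shallow tumor-free libraries. The cause of these changes was not tested.

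With the replicate number as a block the list gave 2 calls in the lymphatic comparison (Ms4a1 and Pax5), 4 in the hematogenous comparison (Ighg1 added as lower, edgeR adjusted p = 0.0449) and 1 in the comparison of the models, and Iglc2 was no longer called (edgeR adjusted p = 0.067). Over all genes the block gave 362, 2518 and 1439 calls. The numbers do not pair the libraries: correlations of same-numbered deviations ran from -0.0935 to 0.0825.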
